A study of Mus musculus with 10 samples.

Results

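The 8 genes described here encode the neuronal nicotinic acetylcholine receptor subunits α3 (*Chrna3*), α4 (*Chrna4*), α5 (*Chrna5*), α6 (*Chrna6*), α7 (*Chrna7*), β2 (*Chrnb2*), β3 (*Chrnb3*) and β4 (*Chrnb4*). They were chosen by symbol, and were 8 of the 33502 genes in a single-nucleus RNA-sequencing (snRNA-seq) count matrix from punches of a midline thalamic nucleus of the mouse, the paraventricular thalamus (PVT), and its surroundings. The matrix held 20503 nuclei from 10 libraries of C57BL/6J mice aged 12 weeks, with no treatment or genetic change in any group. In 4 libraries the mice were male by the deposited metadata (male replicates 1 to 4), and in 6 they were female by the sample titles (female replicates 1 to 6). The methods describe a pool of punches from 4 mice for each sample, but do not state the pool size of the female libraries separately, so the spread between libraries may be one between pools. Nothing in the labels names the mice of each library, and differences between male and female libraries cannot be told apart from differences in depth or preparation between these sets. Each unit counted is a unique molecular identifier (UMI), 1 captured RNA molecule. Male libraries held 7568267 to 55956635 UMIs and female libraries 5119927 to 12891409.

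Nicotinic receptors are cation channels made of subunits around a central pore and are opened by acetylcholine or nicotine. The α4 and β2 subunits form the widespread high-affinity receptor of the brain, α7 can form receptors alone, and α3 with β4 forms receptors of autonomic ganglia and of the medial habenula. The α5 and β3 subunits join other subunits as accessory parts, and α6 is known from catecholamine neurons and the visual pathway. The medial habenula adjoins the PVT, so a punch of the PVT can include it. It contains neurons that make acetylcholine and neurons that make the peptide substance P, and sends both to the interpeduncular nucleus.

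Of these genes, 5 lie in a pair of gene clusters. In RefSeq coordinates of GRCm38.p6, *Chrna5* spans chr9:54980827-55011420 on the plus strand. *Chrna3* lies beside it at chr9:55010117-55026562 and *Chrnb4* at chr9:55028154-55048953, both on the minus strand. A gap of 1591 bases separates *Chrna3* from *Chrnb4*. *Chrnb3* (chr8:27368711-27399730, plus strand) and *Chrna6* (chr8:27403212-27413944, minus strand) are 3481 bases apart. The other genes are on chromosomes of their own, *Chrna4* on chromosome 2, *Chrnb2* on chromosome 3 and *Chrna7* on chromosome 7. In the RefSeq annotation the 3′ ends of *Chrna5* and *Chrna3* overlap by 1304 bases on opposite strands, whereas the GENCODE annotation ends *Chrna5* 3641 bases earlier and leaves a gap of 2331 bases. Which annotation the counting used is not stated in the labels or methods, and how far the choice sets the low *Chrna5* counts was not tested.

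Because *Chrna3*, *Chrnb4* and *Chrna5* are neighbours that shared one pattern of expression below, their promoters are shown, from 250 bases before to 50 bases after the annotated start, 5′ to 3′ on the gene's strand (RefSeq, GRCm38.p6). The *Chrnb4* and *Chrna5* windows shown lie wholly inside the gene spans given above. Their annotated starts are therefore not the outer ends of those spans. Capitals mark each match to GGGCGG, the GC box to which Sp factors bind, on either strand.

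Chrna3, chr9:55026513-55026812, minus strand: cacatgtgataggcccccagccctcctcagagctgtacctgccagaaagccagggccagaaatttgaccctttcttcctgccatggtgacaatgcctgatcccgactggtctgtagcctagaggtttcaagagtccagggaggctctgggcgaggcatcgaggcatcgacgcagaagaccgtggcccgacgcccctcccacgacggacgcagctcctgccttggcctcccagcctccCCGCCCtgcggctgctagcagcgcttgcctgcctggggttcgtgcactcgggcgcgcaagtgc

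Chrnb4, chr9:55048495-55048794, minus strand: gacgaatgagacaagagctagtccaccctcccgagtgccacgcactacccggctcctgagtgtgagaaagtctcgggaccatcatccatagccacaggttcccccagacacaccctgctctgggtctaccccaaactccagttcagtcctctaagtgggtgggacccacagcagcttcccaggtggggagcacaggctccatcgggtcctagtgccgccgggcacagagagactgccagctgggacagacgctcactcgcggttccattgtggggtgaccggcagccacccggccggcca

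Chrna5, chr9:54981238-54981537, plus strand: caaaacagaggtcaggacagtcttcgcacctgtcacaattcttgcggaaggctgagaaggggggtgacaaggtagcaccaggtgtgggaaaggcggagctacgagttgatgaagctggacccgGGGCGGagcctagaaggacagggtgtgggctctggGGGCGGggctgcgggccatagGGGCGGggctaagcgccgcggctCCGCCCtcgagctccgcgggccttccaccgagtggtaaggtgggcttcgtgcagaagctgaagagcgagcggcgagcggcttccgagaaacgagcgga

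The *Chrna3* window held 1 GC box, the *Chrnb4* window 0 and this *Chrna5* window 4. A second annotated *Chrna5* start, with the window chr9:54980630-54980929, had 0. Of the 32851 promoter windows in the same table, 35.7% held a GC box. Promoters were found for 6 of the 8 genes, and among those the *Chrna4* window held 3 GC boxes and the *Chrnb2* and *Chrna7* windows 1 each. None of these 7 windows contained CCAAT, which 37.4% of all windows held, or TGACGTCA, the cAMP response element, which 1.79% held.

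Levels were compared over UMIs summed per library and group, with edgeR's quasi-likelihood test and the library as a block, and are given as CPM, counts-per-million values scaled with edgeR's TMM factors. A gene was called when its adjusted p (Benjamini-Hochberg over all genes tested) was under 0.05 and its absolute log2 fold change over 0.5. To separate the regions of the punch, the 10307 neurons with more than 1000 genes were split by marker genes that are not nicotinic subunits. A nucleus with 2 or more UMIs of *Nwd2* was put in the Nwd2 group (1208 nuclei), and the remaining nuclei in the Gad2 (304), C1ql3 (4110) or Adarb2 (2047) group, while 2638 stayed in none. *Nwd2* marks the habenula, *C1ql3* the PVT, *Adarb2* the mediodorsal thalamus and *Gad2* GABA neurons.

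Other markers were checked in the Nwd2 and Gad2 groups. In the Nwd2 group the mean level of *Tac2*, the neurokinin B precursor of the medial habenula, was 782 CPM and that of *Pou4f1*, a habenular transcription factor, 64.1 CPM, against 0.748 CPM of *Pou4f1* in the C1ql3 group. The Gad2 group had 43.1 CPM of *Slc32a1*, the vesicular GABA transporter. It had 391 unscaled CPM of *Slc17a6*, a vesicular glutamate transporter, against 365 in the Adarb2, 269 in the Nwd2 and 531 in the C1ql3 group. Of its 304 nuclei, 117 were in the deposited cluster Neurons (5), 78 in Neurons (4), 46 in Neurons (1) and 44 in Neurons (2). This group was therefore a mixture and cannot be read as GABA neurons alone. The Adarb2 group also spanned several clusters. Of its 2047 nuclei, 1045 were in Neurons (3), 409 in Neurons (7), 383 in Neurons (8) and 92 in Neurons (5). Whether all of them are mediodorsal neurons was not tested. The Nwd2 group was 6.28 to 31.9% of the neurons of male libraries and 2.87 to 30.7% of those of female libraries. Across libraries, 46 of 20457 different nucleus barcodes occurred more than once, and no pair of libraries shared more than 8.

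*Chrna3*, *Chrnb3* and *Chrnb4* were concentrated in the Nwd2 group. That group gave 86.6% of the 1989 *Chrna3* UMIs in the matrix, 92.1% of the 937 *Chrnb3* UMIs and 89.7% of the 900 *Chrnb4* UMIs, although its nuclei had a lower median depth (8359.5 UMIs) than those of the C1ql3 group (12713.5). The other tested subunits had no such concentration, and the Nwd2 group gave 7.60% of 2105 *Chrna4*, 6.96% of 2759 *Chrna7* and 10.6% of 3010 *Chrnb2* UMIs. For each of the 8 genes, 90.2 to 96.3% of UMIs came from nuclei named as neurons. Neurons were 10410 of the 20503 nuclei. Their median depth was 11157 UMIs, against 1756 to 3658 in the other cell types, so they also held most UMIs of all genes.

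*Chrna3* was at 89.2 CPM in the lowest library of the Nwd2 group, 149 CPM in the median and 187 CPM in the highest (143.8 ± 35.4, SD, n = 10). In the C1ql3 group its level was 0.265 to 4.09 CPM with a median of 1.77, in the Adarb2 group 0 to 3.05 with a median of 1.45, and in the Gad2 group 0 to 14.5 with a median of 2.94 over 8 libraries. The lowest Nwd2 library thus lay above the highest library of each other group, and the groups did not overlap. Against the mean of the other groups, *Chrna3* was 6.11 higher on the log2 scale (SE 0.15, adjusted p = 3.7e-31) and higher in 10 of 10 libraries.

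*Chrnb3* followed the same order, at 42.2, 62.5 and 91.7 CPM in the lowest, median and highest library of the Nwd2 group. Elsewhere its highest library was at 0.366 CPM in the C1ql3 group, 1.18 CPM in the Adarb2 group and 5.03 CPM in the Gad2 group. The subunit it encodes is an accessory one that needs partners to form a channel. It was 7.13 higher than the mean of the other groups on the log2 scale (SE 0.18, adjusted p = 4e-31). *Chrnb4*, whose product pairs with α3, was at 39.1, 67.1 and 94.9 CPM in the lowest, median and highest library of the Nwd2 group and at no more than 1.15 CPM in any library of the other groups. The corresponding difference was 7.09 (SE 0.16, adjusted p = 1.4e-32). These 3 genes were called higher among the 6 subunits that passed the filter on low counts, in a comparison where 14.6% of 12018 tested genes were called higher. *Chrnb3* had 863 UMIs in the Nwd2 group and 10, 11 and 4 in the C1ql3, Adarb2 and Gad2 groups. *Chrnb4* had 807, 23, 15 and 1 in the same order, and *Chrna3* 1722, 103, 31 and 13. All 3 genes thus passed the filter through the group where they were high. Their fold changes and p-values describe genes kept for that group, and 3 of 6 is no measure of the subunits as a set. *Chrna3*, *Chrnb3* and *Chrnb4* were all called in each of the fits that left out 1 library.

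Within the Nwd2 group the libraries did not rank alike for the 3 genes. Male replicate 4 was lowest for *Chrnb4* (39.1 CPM) and next to lowest for *Chrna3* (91.3 CPM), but at 72.2 CPM for *Chrnb3* it was above the median. Male replicate 1 was highest for *Chrnb3* (91.7 CPM), at the same level for *Chrnb4*, and near the median for *Chrna3* (149.9 CPM). Female replicate 4 was lowest for *Chrna3* (89.2 CPM) and *Chrnb3* (42.2 CPM) with 40 nuclei in its sum. No difference of the Nwd2 contrast between female and male libraries passed the adjusted threshold for any tested subunit.

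**Figure D1:**
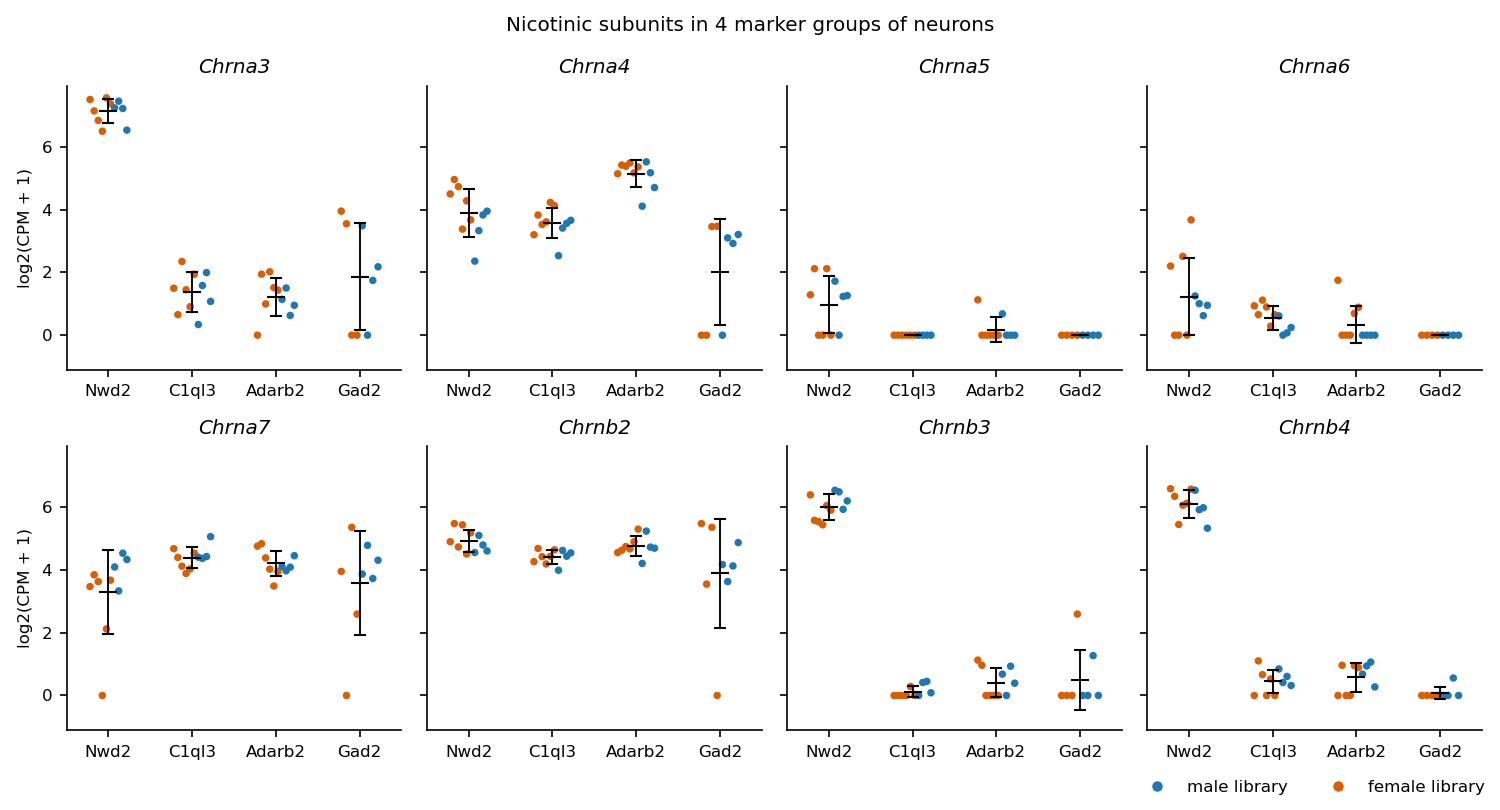
Level of each subunit in the 4 marker groups of neurons. Each point is 1 library (blue male, orange female) on a log2(CPM + 1) axis, and black bars give the mean ± SD over libraries. *Chrna3*, *Chrnb3* and *Chrnb4* stand apart in the Nwd2 group with no overlap, and *Chrna4* is highest in the Adarb2 group.

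The UMI limit of *Nwd2* was a mild one, and of the 1208 nuclei, 346 lay outside the deposited cluster Neurons (6), which held the other 862. In nuclei with 20 or more *Nwd2* UMIs (681 nuclei) *Chrna3* was at 233 pooled CPM (its UMIs over all UMIs of the nuclei, with no scaling), in those with 2 to 19 at 18.9, in those with 1 at 1.41 and in those with 0 at 1.63. *Chrnb3* gave 119, 5.92, 0.282 and 0.281 pooled CPM in the same order, and *Chrnb4* 108, 10.2, 0.352 and 0.482. The levels of all 3 genes in nuclei with 1 *Nwd2* UMI therefore lay near those with 0, and those with 2 to 19 lay between. *Chrna4* was at 11.9 pooled CPM with 20 or more *Nwd2* UMIs and 14.2 with 2 to 19. *Chrna7* was at 13.9 and 17.6 in the same order, and *Chrnb2* at 29.8 and 20.5. The Nwd2 group levels of these subunits given below thus average over both sets of nuclei. With the limit at 20, chosen after the data were seen, the log2 fold changes of the Nwd2 group were 6.98 for *Chrna3*, 8.05 for *Chrnb3* and 7.89 for *Chrnb4*.

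*Chrna5* and *Chrna6* had too few UMIs for the test. *Chrna5*, which lies beside *Chrna3*, had 21 UMIs in all, and 18 of them were in the Nwd2 group (1.46 pooled CPM). No UMI was found in the C1ql3 group, whose 56237104 UMIs make the Nwd2 level at least 27.3-fold higher when 3 UMIs are taken as the limit that a count of 0 allows. The Adarb2 group had 2 (ratio 21.4, 95% Poisson interval 5.12 to 190). In the Gad2 group it was also not found, and the limit there gave at least 1.93-fold. By library, the Nwd2 group held 0 to 5 *Chrna5* UMIs, with 4 of 10 libraries at 0.

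*Chrna6*, the neighbour of *Chrnb3*, was spread more widely. Of its 39 UMIs, 15 were in the Nwd2 group (1.21 pooled CPM), 13 in the C1ql3 group (ratio 5.25, interval 2.33 to 12.0), 5 in the Adarb2 group (ratio 7.13, interval 2.46 to 25.1) and 0 in the Gad2 group. These intervals cover counting error only. Over all neurons with more than 1000 genes it was at 0.158 pooled CPM in male libraries (95% interval 0.0885 to 0.261) and 0.701 in female libraries (0.439 to 1.06). Female libraries had 24 of the 39 UMIs with less total depth than male libraries, and for such counts sex cannot be told apart from the library preparation.

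The Nwd2 group was next divided by cholinergic genes. Nuclei of the Nwd2 group with 2 or more UMIs over *Chat* (choline acetyltransferase), *Slc5a7* (choline transporter) and *Slc18a3* (vesicular acetylcholine transporter) were compared with nuclei with 0, in the 9 libraries that had at least 10 of each. Of 531 cholinergic nuclei and 550 others in all libraries, 526 and 540 were in these 9. Of the 550 others, 320 lay outside the habenular cluster Neurons (6), so the differences that follow set habenular nuclei largely against nuclei of other clusters. *Chrna3* was at 175 to 412 CPM in the cholinergic nuclei with a median of 292, and at 10.5 to 80.7 CPM with a median of 30.9 in the others. The lowest cholinergic library lay above the highest of the other nuclei. The difference was 3.25 on the log2 scale (SE 0.20, edgeR adjusted p = 3.9e-09), with a higher level in 9 of 9 libraries.

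*Chrnb3* was at 138 ± 43.9 CPM in cholinergic nuclei and 10.3 ± 8.80 in the others (SD, n = 9), a log2 fold change of 4.17 (SE 0.30, edgeR adjusted p = 1.2e-08). *Chrnb4* was at 136 ± 31.6 CPM against 16.05 ± 12.8, a log2 fold change of 3.37 (SE 0.29, edgeR adjusted p = 7.8e-08). Neither gene's groups overlapped, the lowest cholinergic libraries being at 67.4 and 85.3 CPM and the highest of the other nuclei at 26.3 and 34.2. *Chrnb2* differed less, at 43.5 ± 14.4 CPM against 28.0 ± 14.3, with overlap between the groups. It was higher in 9 of 9 libraries (log2 fold change 0.64, SE 0.19, edgeR adjusted p = 0.015), but was not called without male replicate 4 (adjusted p = 0.068) or without the library block (adjusted p = 0.096). The 4 subunits tested were thus called higher, where 13.2% of the 6779 genes tested were. *Chrna4* (43 UMIs in cholinergic and 83 in other nuclei) and *Chrna7* (89 in each) did not pass the filter on low counts. *Chrna3*, *Chrnb3* and *Chrnb4* had most of their UMIs in the cholinergic nuclei. The count of calls therefore describes only genes kept by that filter, not the subunits as a set.

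**Figure D2:**
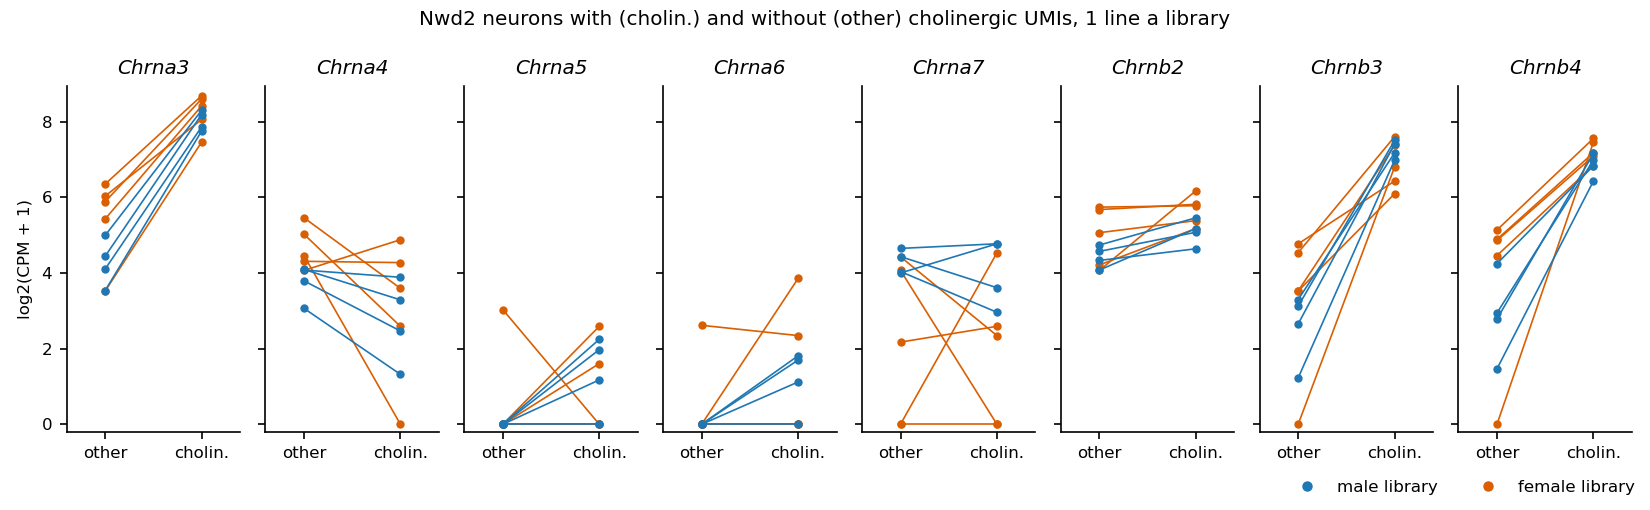
Level of each subunit in other and in cholinergic nuclei of the Nwd2 group, on a log2(CPM + 1) axis. Each line joins the values of 1 library (blue male, orange female). Every line rises from the other to the cholinergic nuclei for the 4 tested subunits (*Chrna3*, *Chrnb2*, *Chrnb3* and *Chrnb4*), from 10.5 to 80.7 CPM up to 175 to 412 CPM in the case of *Chrna3*. For *Chrna4*, which was not tested, every line falls except that of female replicate 3 (15.8 to 28.5 CPM).

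The other nuclei were a mixture. Of the cholinergic nuclei 98.7% were in the deposited cluster Neurons (6), but of the others 41.8% (230 of 550). Other nuclei inside that cluster had 113 pooled CPM of *Chrna3*, and the 320 elsewhere had 1.79, against 260.0 in the cholinergic nuclei of the cluster. *Chrnb3* gave 32.8, 0 and 138 pooled CPM in the same order, and *Chrnb4* 52.1, 0.448 and 121. Thus nuclei inside the cluster without cholinergic UMIs still carried all 3 subunits, at levels between the extremes. *Tac1*, which encodes substance P, was at 157 pooled CPM over the other nuclei and at 12.3 over the cholinergic nuclei.

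With the limit of 20 *Nwd2* UMIs, 5 libraries remained. *Chrna3* was then at 315 ± 55.6 unscaled CPM in 282 cholinergic nuclei and 135 ± 86.3 in 93 others (SD, n = 5), and its log2 fold change became 1.42 (edgeR adjusted p = 0.0028). For *Chrnb3* the log2 fold change became 2.75 (edgeR adjusted p = 3.1e-05) and for *Chrnb4* 1.402 (edgeR adjusted p = 0.0025), so the size of the difference depended on that limit while its direction did not. Between female and male libraries, the cholinergic difference was lower in female libraries by 1.22 on the log2 scale for *Chrna3* (edgeR adjusted p = 0.14), by 1.74 for *Chrnb3* (edgeR adjusted p = 0.26) and by 1.59 for *Chrnb4* (edgeR adjusted p = 0.25). None of these was called.

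In single nuclei, detection was limited by depth. At their full depth 82.7% of cholinergic nuclei had a *Chrna3* UMI, 62.3% a *Chrnb3* UMI and 63.7% a *Chrnb4* UMI, and 199 of 531 (37.5%) had all 3, while 26 (4.90%) had none. When each nucleus was thinned to 2000 UMIs, the *Chrna3* share was 38.3% in cholinergic nuclei, 8.54% in other nuclei and 0.619% in oligodendrocytes, which should lack it. The corresponding shares were 23.1%, 3.04% and 0% for *Chrnb3* and 20.3%, 4.17% and 0.310% for *Chrnb4*. The median depths before thinning were 9769 UMIs in the cholinergic and 7144.5 in the other nuclei, and 2321 in oligodendrocytes. In thinned cholinergic nuclei, *Chrnb4* was found in 21.3% of those with a *Chrna3* UMI and 19.6% of those without, and *Chrnb3* in 23.3% and 23.0%. *Chrnb3* was found in 19.6% of those with a *Chrnb4* UMI and 24.0% of those without. At full depth, where nuclei were not matched for depth, all 3 pairs went together. *Chrnb4* was then found in 65.8% of the nuclei with *Chrna3* and 53.3% of those without, *Chrnb3* in 65.8% and 45.7%, and *Chrnb3* in 66.3% of the nuclei with *Chrnb4* and 55.4% of those without.

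The untested subunits had low counts in both classes. *Chrna5* had 13 UMIs in cholinergic nuclei of the deposited cluster and 1 in other nuclei of the cluster, and *Chrna6* had 10 and 1. *Chrna4* went the other way, at 10.2 ± 9.05 CPM in cholinergic nuclei and 20.3 ± 10.8 in the others (SD, n = 9), with overlapping libraries. *Chrna7* was at 11.3 ± 10.8 and 12.8 ± 9.25 CPM.

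**Figure D3:**
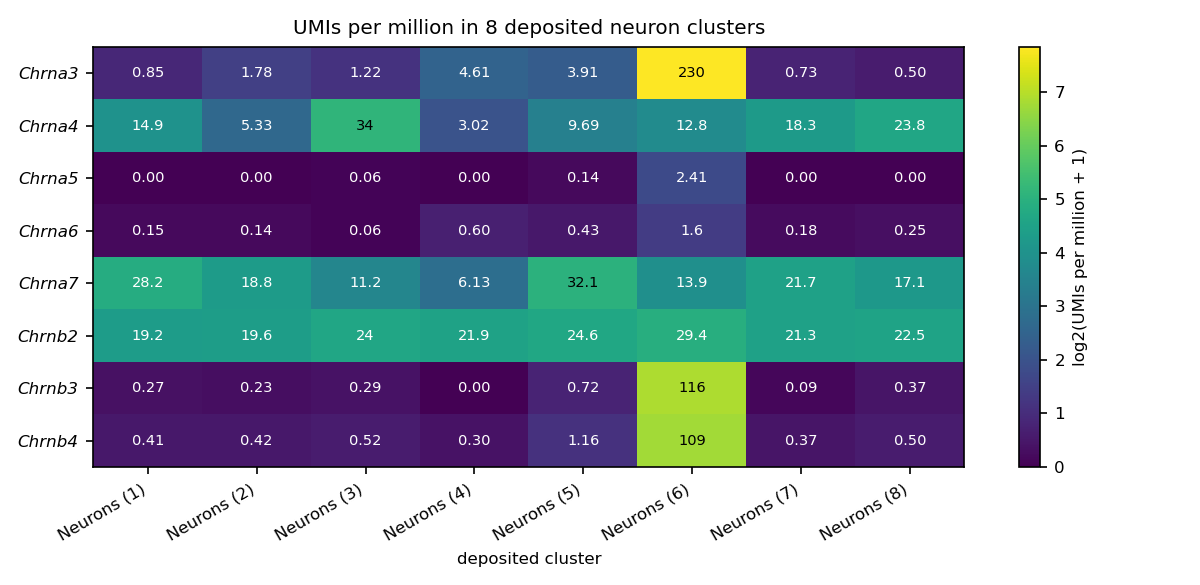
Pooled CPM of each subunit over all libraries in the 8 deposited neuron clusters. *Chrna3*, *Chrnb3* and *Chrnb4* reach 229.6, 116 and 109 pooled CPM in Neurons (6), while *Chrna4* is highest in Neurons (3) at 34.0 and *Chrna7* in Neurons (5) at 32.1.

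The authors' clusters, made from the same nuclei and all genes, are given as a description. Neurons (6), which held 862 nuclei of the Nwd2 group, had 2.41 pooled CPM of *Chrna5* and 1.60 of *Chrna6*, and both values were the highest of the 8 clusters. Outside it *Chrna3* did not exceed 4.61 pooled CPM, which it reached in Neurons (4) (95% Poisson interval 3.53 to 5.93), ahead of Neurons (5) at 3.91 and the remaining clusters at 0.499 to 1.78. *Chrnb3* was at 0 in Neurons (4), so the low *Chrna3* level of that cluster was not accompanied by *Chrnb3*, and *Chrnb4* there was at 0.302 pooled CPM. *Chrnb2* varied least, from 19.2 in Neurons (1) to 29.4 in Neurons (6). In the clusters with the largest parts of the Adarb2 group, *Chrna4* was at 34.0 in Neurons (3), 18.3 in Neurons (7) and 23.8 in Neurons (8).

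*Chrna4*, the α subunit of the high-affinity receptor, was highest in the Adarb2 group. Its lowest, median and highest libraries there were at 16.2, 37.5 and 44.9 CPM (35.6 ± 8.97, SD, n = 10), and 15.7 ± 8.06 CPM in the Nwd2 group, 11.4 ± 3.77 in the C1ql3 group and 5.30 ± 4.54 in the Gad2 group (n = 8). Male replicate 1 was lowest in the first 3 of these groups, and its 16.2 CPM in the Adarb2 group was the value that overlapped with the C1ql3 group, whose highest library was at 17.7. With the Nwd2 group, which reached 30.03 CPM, it overlapped together with male replicate 4 at 25.0. Against the mean of the other groups, the Adarb2 level was 1.65 higher on the log2 scale (SE 0.13, edgeR adjusted p = 6.4e-14, higher in 10 of 10 libraries), in a comparison with 10.7% of genes called higher. The Gad2 group was 1.37 lower (SE 0.28, edgeR adjusted p = 0.0005), where 3.46% of genes were called lower, a call lost in female libraries alone.

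Between neighbours in this order, the Adarb2 group exceeded the Nwd2 group by 1.16 (SE 0.16, edgeR adjusted p = 4e-08, background 15.4%). The Nwd2 and C1ql3 groups were not distinguished for *Chrna4*, with the C1ql3 level 0.36 lower on the log2 scale (95% interval -0.69 to -0.03, edgeR adjusted p = 0.071). Likewise the C1ql3 and Gad2 groups differed by 0.74 (0.14 to 1.34, edgeR adjusted p = 0.21). The Nwd2 group exceeded the Gad2 group (Gad2 1.11 lower, edgeR adjusted p = 0.0067, background 11.2%), a call lost in 5 alternatives. These were female libraries alone, male libraries alone, the fit without male replicate 3 (edgeR adjusted p = 0.053), a marker limit of 3 UMIs (edgeR adjusted p = 0.091) and grouping by the majority of marker UMIs (edgeR adjusted p = 0.084).

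*Chrna7*, which encodes the subunit of homomeric receptors, was highest in the C1ql3 group, at 20.5 ± 5.26 CPM, followed by the Adarb2 group at 18.1 ± 5.42, the Gad2 group at 16.3 ± 12.5 and the Nwd2 group at 11.6 ± 6.68. All groups overlapped. Only the ends of this order differed by the call rule, the C1ql3 group being 0.55 above the Nwd2 group on the log2 scale (SE 0.17, edgeR adjusted p = 0.0064, higher in 9 of 10 libraries, background 15.9%). This call was lost without female replicate 1 (0.42), female replicate 5 (0.46) or male replicate 2 (0.47), in male libraries alone and without the library block. In female replicate 4 the Nwd2 group had 0 *Chrna7* UMIs among 209255.

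*Chrnb2*, the partner of α4, had the flattest profile of the tested subunits. The Nwd2 group was at 30.2 ± 7.95 CPM, the Adarb2 group at 26.8 ± 6.34, the Gad2 group at 20.9 ± 15.1 and the C1ql3 group at 20.6 ± 3.14. No pair was called. The C1ql3 group lay 0.44 below the Nwd2 group on the log2 scale in 10 of 10 libraries (SE 0.13, edgeR adjusted p = 0.0042), within the limit of 0.5 that the call rule sets. With the limit of 20 *Nwd2* UMIs, the Nwd2 group was at 32.6 ± 7.52 unscaled CPM (SD, n = 9) and the C1ql3 group at 20.3 ± 3.19. The *Chrnb2* differences of the Adarb2 group from the Gad2 and C1ql3 groups had the direction of those of *Chrna4*, but that from the Nwd2 group did not. There *Chrna4* was at a log2 fold change of 1.16 and *Chrnb2* at -0.10 (SE 0.13, edgeR adjusted p = 0.57, higher in 5 of 10 libraries). Between the Adarb2 and Gad2 groups *Chrna4* differed by 2.26 (SE 0.27, edgeR adjusted p = 9.6e-09, background 10%) and *Chrnb2* by 0.44 (95% interval 0.04 to 0.83, edgeR adjusted p = 0.11). Between the Adarb2 and C1ql3 groups *Chrna4* differed by 1.52 (SE 0.12, edgeR adjusted p = 5.8e-14) and *Chrnb2* by 0.34 (SE 0.11, edgeR adjusted p = 0.0095, higher in 9 of 10 libraries). The difference between the 2 genes was not tested.

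Neurons of the C1ql3 group were also split into panels by markers from the text or marker table of the study's PVT subtypes, which were *Esr1*, *Drd2* and *Egflam* for PVT1, *Col12a1* and *Pde3a* for PVT2, *Npffr1* and *Insrr* for PVT3, *Hcrtr1* and *Npsr1* for PVT4, and *Drd3* and *Slc22a3* for PVT5. *Chrna4*, *Chrna7* and *Chrnb2* passed the filter. *Chrna4* was highest in PVT2, from 9.90 to 48.2 CPM with a median of 26.0 over 10 libraries, and 1.57 above the mean of the other panels on the log2 scale (SE 0.19, edgeR adjusted p = 2.8e-10, higher in 10 of 10 libraries). It was lowest in PVT4, from 0 to 10.5 CPM with a median of 3.26 over 6 libraries, 1.53 below the others (SE 0.37, edgeR adjusted p = 0.0018). The 2 panels overlapped only between 9.90 and 10.5 CPM. A low *Chrna4* level was not particular to PVT4. PVT3 was at 4.77 ± 3.84 CPM (SD, n = 4), against 4.24 ± 4.47 in PVT4 (n = 6), and was not called (log2 fold change -0.51, SE 0.42). PVT1 was at 14.4 ± 5.17 CPM and PVT5 at 9.85 ± 3.50. The backgrounds were 5.06% of 8148 genes called higher in PVT2 and 3.41% called lower in PVT4.

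*Chrna7* was called higher in PVT2 (33.0 ± 11.8 CPM, log2 fold change 1.20, SE 0.15, edgeR adjusted p = 1.2e-09) and in PVT1 (30.4 ± 6.30 CPM, log2 fold change 0.57, SE 0.17, edgeR adjusted p = 0.0089, background 3.66%). It was at 10.5 ± 8.79 CPM in PVT3, 18.3 ± 9.17 in PVT4 and 13.9 ± 7.59 in PVT5. The libraries of PVT3, at most at 19.6 CPM, lay below those of PVT1 and PVT2, and the ranges of PVT4 and PVT5 overlapped with both. *Chrnb2* was at 18.1 to 28.1 CPM in panel means and was not called in any panel. Sums of PVT3 came from 4 male libraries, so this panel has no female value. No member passed the filter on low counts without male replicate 1, 3 or 4, or in female libraries alone, and the PVT4 call of *Chrna4* and the PVT1 call of *Chrna7* were lost without the library block.

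**Figure D4:**
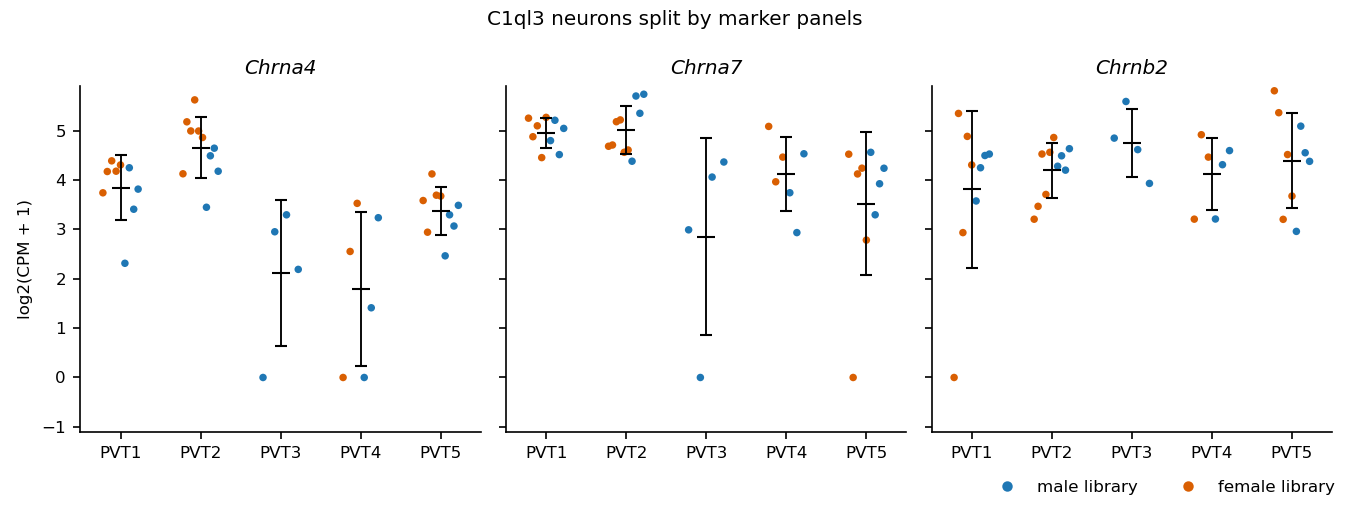
Level of *Chrna4*, *Chrna7* and *Chrnb2* in neurons of the C1ql3 group by PVT marker panel, on a log2(CPM + 1) axis. Each point is 1 library (blue male, orange female) and black bars give the mean ± SD. *Chrna4* and *Chrna7* have their highest means in PVT2 (26.2 and 33.0 CPM), and *Chrnb2* is level across panels.

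Across the 8 cell types made from the deposited cluster names, no subunit passed the default filter, which kept 9842 genes. With a filter of at least 50 UMIs, chosen after the data were seen, 20330 genes and 6 subunits were tested, and all 6 were called higher in neurons, where 39.9% of genes were. *Chrnb3* and *Chrnb4* had 38 and 33 UMIs outside neurons and 899 and 867 in them, so both passed this filter through neurons. The count of 6 is therefore no measure of the subunits as a set. The log2 fold changes were 1.60 for *Chrna4* (SE 0.20), 1.88 for *Chrnb2* (SE 0.19), 2.03 for *Chrna7* (SE 0.21), 2.89 for *Chrna3* (SE 0.22), 2.97 for *Chrnb4* (SE 0.27) and 4.58 for *Chrnb3* (SE 0.41). When the cluster Neurons (6) was left out, *Chrna4*, *Chrna7* and *Chrnb2* kept their calls, and *Chrna3*, *Chrnb3* and *Chrnb4* were no longer called, at -0.28, -0.22 and -0.94.

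Oligodendrocyte precursor cells (OPCs), the dividing glia that give rise to oligodendrocytes, had raised levels of 2 subunits. *Chrna4* was at 12.2 to 45.9 CPM in OPCs with a median of 24.4 over 9 libraries, near the 20.02 ± 5.16 CPM of neurons, and *Chrna7* was at 4.37 to 41.9 CPM with a median of 27.6. The sums were small, at 53 *Chrna4* and 47 *Chrna7* UMIs. Against the mean of the other types, OPCs were 1.86 higher for *Chrna4* (SE 0.32, edgeR adjusted p = 2.5e-06, higher in 9 of 9 libraries) and 2.14 higher for *Chrna7* (SE 0.36, edgeR adjusted p = 1e-06, higher in 8 of 9), with 14.6% of genes called higher. In male libraries alone the *Chrna4* difference was 0.82 and was not called (edgeR adjusted p = 0.46), and in female libraries alone it was 2.89. *Chrnb2* in OPCs was at 7.26 ± 9.91 CPM and was not called.

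In glia, *Chrna4* was lower in astrocytes (log2 fold change -0.99, edgeR adjusted p = 0.0066, background 10.4%), at 3.21 ± 2.80 CPM. *Chrna7* was at 8.25 ± 5.81 CPM in astrocytes and not called there. It was lower in oligodendrocytes (2.44 ± 2.46 CPM, background 14.7%), in microglia (0.585 ± 1.85 CPM, background 16.1%) and in ependymal cells (1.48 ± 2.34 CPM, background 13.2%). These levels rest on few UMIs, at 15 of *Chrna7* in oligodendrocytes, 5 in microglia and 4 in ependymal cells, and all 5 of microglia were in male replicate 4. The 4 lower calls were lost in female libraries alone and with nuclei thinned to 2000 UMIs, and those of *Chrna7* in ependymal cells and microglia also in male libraries alone. Without male replicate 3 the *Chrna4* difference in astrocytes was -0.65 (edgeR adjusted p = 0.24). Without male replicate 4, when microglia were at 0, the *Chrna7* differences were -1.32 in oligodendrocytes and -1.58 in ependymal cells and were not called (edgeR adjusted p = 1 for both). *Chrnb3* was called higher in astrocytes by 1.84 (edgeR adjusted p = 0.049, background 24.6%), although it was higher in 3 of 10 libraries, and DESeq2 gave -0.47. Without 1 library this call was kept only when male replicate 1 was the one left out (edgeR adjusted p = 0.057 to 0.087 in the other 9 fits). Since *Chrnb3* had 0 UMIs in OPCs, endothelial cells and fibroblasts, its fitted differences between cell types, neurons included, depend on the prior count of the fit.

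**Figure D5:**
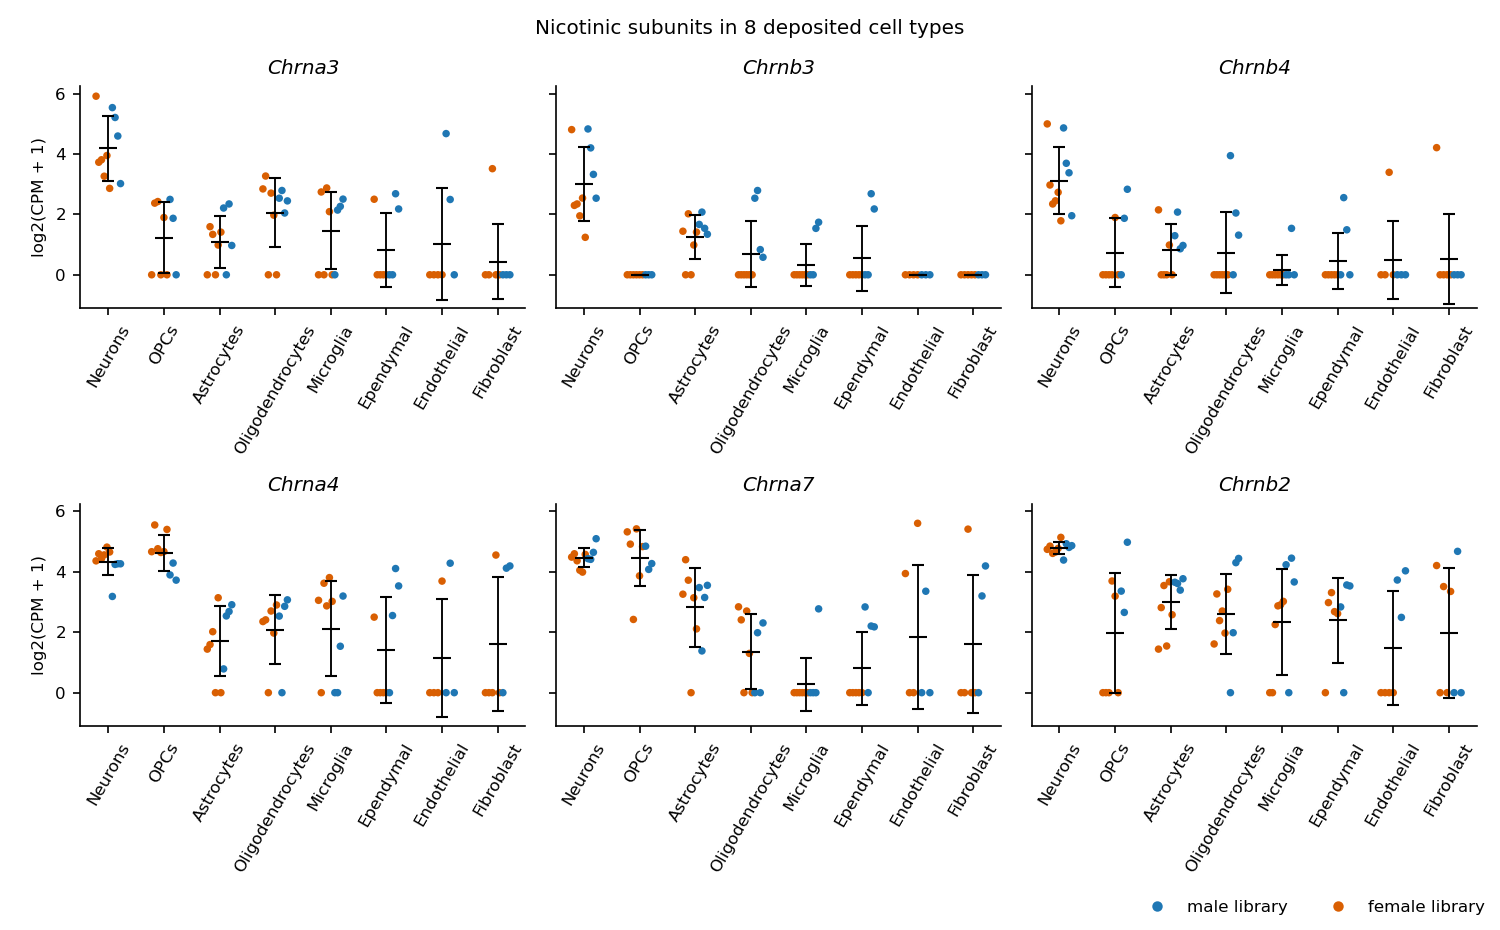
Level of *Chrna3*, *Chrnb3*, *Chrnb4*, *Chrna4*, *Chrna7* and *Chrnb2* in the 8 cell types on a log2(CPM + 1) axis. Each point is 1 library (blue male, orange female) and black bars give the mean ± SD. *Chrna4* and *Chrna7* have similar means in neurons (20.02 and 21.6 CPM) and OPCs (25.7 and 24.2 CPM).

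The few *Chrna3*, *Chrnb3* and *Chrnb4* UMIs outside neurons kept the proportions of the Nwd2 group. All non-neuronal nuclei together had 77 *Chrna3*, 38 *Chrnb3* and 33 *Chrnb4* UMIs, which in pooled CPM were 1.70%, 1.67% and 1.55% of the Nwd2 level. Relative to *Chrna3*, *Chrnb3* was 0.494 and *Chrnb4* 0.429 outside neurons, and 0.501 and 0.469 in the Nwd2 group. The part of free RNA in these counts was not tested.

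Genes that act with nicotinic receptors were examined as 3 lists. In the Nwd2 group, none of 8 other nicotinic subunit genes passed the filter. Of 8 genes for assembly and Ly6 proteins, which help receptors fold or bind to them, all were tested and 3 were called higher and 1 lower (14.8% of all genes were called lower). *Lypd6b* was 1.06 higher on the log2 scale (SE 0.20), *Ly6e* 0.68 higher (SE 0.13) and *Lypd6* 0.55 higher (SE 0.20), while *Lypd1* was 1.43 lower (SE 0.16). The median over this list was 0.10, against 0.03 over all genes tested. The chaperones *Ric3* (0.24) and *Tmem35a* (-0.04) were not called. In the Adarb2 group, which had the highest *Chrna4* level, 0 of these 8 genes were called higher and 4 lower (median -0.52, all genes -0.04), with 12.9% of all genes called lower. In the C1ql3 group 4 were called higher and 1 lower (median 0.51, all genes 0.01), with 7.55% and 6.14% of all genes.

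Of 12 genes of the cholinergic synapse, 7 were tested and in the Nwd2 group 3 were called higher and 2 lower (median 0.10, all genes 0.03), with 14.6% and 14.8% of all genes. *Chat* was 8.28 higher (SE 0.14) and *Slc5a7* 6.06 higher (SE 0.15). *Prima1*, which anchors acetylcholinesterase in the membrane, was 4.68 higher (SE 0.17), whereas the gene for the enzyme, *Ache*, was 0.10 higher (SE 0.10) and not called. *Bche*, butyrylcholinesterase, was 1.49 lower (SE 0.24). The muscarinic receptor gene *Chrm2* was 0.54 lower (SE 0.13), and *Chrm3*, at -0.16, was not called.

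The genes whose levels were most like each subunit's were found by Pearson's r over 101 sums of all cell types and neuron groups, among 8581 genes. For *Chrna3* they were *Nwd2* (0.70), *Scube1* (0.69) and *Tac2* (0.68). For *Chrnb3* and *Chrnb4* the same 3 genes came first, with *Scube1* at 0.83 and 0.79. *Nwd2* formed the Nwd2 group itself, and sums of one library share its depth, so these values are a description. For *Chrna4* the nearest genes were *Atcay* (0.64), *Rnf165* (0.64) and *Dpp10* (0.63), for *Chrna7* *Gpr45* (0.70) came first, and for *Chrnb2* *Lhx9* (0.74). For *Chrna5* the nearest was *Scube1* (0.60) and for *Chrna6* *Necab3* (0.45).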

How the data were processed

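Nuclei from PVT tissue punches were sequenced as 10x Genomics 3′ v3 libraries. The authors deposited 1 matrix of whole UMI counts, not normalized, with cluster names and sex per nucleus. The submitters' processing notes name Cell Ranger 6.1.1 and mm10. According to the methods, the authors removed nuclei with fewer than 200 genes or over 5% mitochondrial genes and clusters regarded as doublets, and no doublet caller was run here. Metadata columns not used numbered 21.

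UMI counts were summed per library and class (at least 10 nuclei) and tested in R 4.3.3 with edgeR 4.0.16 (filterByExpr, TMM, quasi-likelihood test), with the library as a block because each library gave sums to several classes, though not to all (Gad2 had 8 libraries, PVT3 4). DESeq2 1.42.0 was an alternative. Standard errors were the absolute log2 fold change over the root of F. In simulated counts, 98% of genes changed 2-fold were called in the neuron group fit (12018 genes) and 68% in the cell type fit (20330 genes). The changed genes were drawn from those with higher counts and changed in a single class of each fit. These shares therefore do not cover genes with low counts or the other classes. All 8 members, and the called genes and chaperones of 3 lists, are named. Members and lists were chosen with earlier results of these data known. p-values measure the spread between libraries. Intervals and limits for a count of 0 cover counting error only.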

Additional observations from a re-analysis of the deposited data

Results flagged for a closer look

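In 84 sets of 4 to 6 libraries of one sex, the highest or lowest library was compared with the rest by Dixon's criterion, which chance meets in about 1 of 20 sets, and 5 sets met it. *Chrna7* in C1ql3 neurons was at 32.3 CPM in male replicate 4 (526 UMIs), while the other 3 male libraries were at 19.6 to 20.5 CPM. The other sets rest on 1 to 3 UMIs in 1 library with 0 in the rest. Such a set meets the criterion whatever its value, so the share of 1 in 20 does not apply to it. *Chrnb3* was at 0.219 CPM in C1ql3 neurons of female replicate 5 (1 UMI), at 5.03 CPM in Gad2 neurons of female replicate 5 (1 UMI) and at 1.41 CPM in Gad2 neurons of male replicate 3 (3 UMIs). *Chrnb4* was at 0.470 CPM in Gad2 neurons of male replicate 3 (1 UMI).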

How the results depend on the processing

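The 3 calls of *Chrna3*, *Chrnb3* and *Chrnb4* in the Nwd2 group were kept in all fits of the neuron groups that tested them, and their log2 fold changes ranged from 5.96 to 6.98, 6.78 to 8.05 and 6.40 to 8.48. The count of subunits called higher there was 5 of 8 without a filter on low counts and 3 in each fit without 1 library. Pairs of neuron groups gave 14 calls, 9 with nuclei thinned to 2000 UMIs (3 subunits tested) and 13 to 17 without 1 library. The PVT panels gave 4 calls, 2 without the replicate block, 0 in female libraries and 0 to 5 without 1 library (0 without male replicate 1, 3 or 4, when no subunit passed the filter, and 2 without female replicate 5); without female replicate 5 or male replicate 2 the 2 calls of *Chrna4* were not tested. Cholinergic against other nuclei gave 4 calls, 3 without the replicate block and 3 to 4 without 1 library. The block is a pairing by library where a library held both classes; PVT3 had sums in 4 libraries, PVT4 in 6 and Gad2 in 8, so other libraries stood on one side. Without the block the C1ql3 against Nwd2 and PVT1 calls of *Chrna7*, the PVT4 call of *Chrna4*, the cholinergic call of *Chrnb2* and the astrocyte call of *Chrnb3* were lost, and no other call of a subunit. With the default filter, 0 subunits were tested across cell types, and 7 were called in neurons without a filter, 2 in male libraries and 4 with at least 30 nuclei a sum (0 in each fit without 1 library). With at least 50 UMIs, 6 were called in neurons, and 3 without the cluster Neurons (6), where *Chrna3*, *Chrnb3* and *Chrnb4* turned to -0.28, -0.22 and -0.94. *Chrnb3* in astrocytes turned to -0.47 with DESeq2 (edgeR 1.84). The sex interaction could not be fitted for the PVT panels. The cause of these changes was not tested. *Chrna5* and *Chrna6* had 21 and 39 UMIs in all and were not tested in the main comparisons.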
